A study of Rattus norvegicus with 6 samples.

Results

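The rows described here are the bright, short rows of a rat expression array that carry no gene name. They were chosen from the deposited table of normalized log2 values by 4 conditions: a row of the main type with no gene accession, a length of at most 150 bases, a place outside the mitochondrial chromosome, and a mean log2 level above 6.7 over all 6 samples. The conditions were met by 602 of the 29489 main rows. Rows with identical values in all 6 samples were counted as 1 member, which left 520 members. Since the mean level chose the members, their brightness is a description and no result. The mean was taken over both groups together, so the difference between the groups did not choose them directly.

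The samples were pools of cells labelled as neuroepithelial progenitors, which divide in the wall of the early neural tube, sorted by flow cytometry from rat embryos at stage E10.5. The control group was 3 pools from dams that received olive oil alone by gavage, with ERCC spike-in mix 1 added to their RNA. The retinoic acid group was 3 pools from dams dosed by gavage with 60 mg/kg of all-trans retinoic acid in the same oil, with ERCC spike-in mix 2 added, so the spike-in mix and the treatment cannot be told apart. All pools held several animals of unstated strain, and neither the sorting gate nor the time from dosing to collection is stated in the labels. The levels were log2 values in all 6 columns, from 4.77 to 14.35 over the table, and the median of the main rows lay between 6.28 and 6.39 in every pool. The number of arrays, 3 a group, limits the precision, and p-values measure the spread between these pools only.

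Small nucleolar RNAs (snoRNAs) are short noncoding RNAs that guide ribose methylation (box C/D class) or pseudouridylation (box H/ACA class) of ribosomal and spliceosomal RNA. In animals most of them are cut from the introns of host genes, many of which encode ribosomal proteins or are noncoding, so that 1 transcript yields both a spliced RNA and 1 or more small RNAs. Tandem arrays of snoRNAs and microRNAs lie in the imprinted Dlk1-Meg3 and Snrpn regions. The files name none of the members as such an RNA, and no member is given a name here. Each is called by its chromosome, start and end as the table gives them, in a genome build not given in the sources used here, and by the named row around or nearest to it. A named row of at least 300 bases that contained a member on the same strand is called its host.

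The host genes place the members beside known transcripts, so the starts of 8 host genes are shown, from 30 bases before the first transcribed base to 10 bases from it on. They were taken from RefSeq (rat assembly GRCr8, whose coordinates differ from those of the table) and cover host genes of 2 to 6 members each that are described below. Capitals mark pyrimidine words of 5 bases on the gene's strand, which are CTTTT or CTTTC, and also CTTCC or CTCTT, with overlapping words joined.
Rpl13a, chr1:104748904-104748943, minus strand: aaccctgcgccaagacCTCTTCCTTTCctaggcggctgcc
Rpl4, chr8:73566447-73566486, plus strand: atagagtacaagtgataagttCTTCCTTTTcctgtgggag
Eif4a2, chr11:91275314-91275353, minus strand: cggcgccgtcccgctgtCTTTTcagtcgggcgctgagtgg
Gas5, chr13:75836933-75836972, plus strand: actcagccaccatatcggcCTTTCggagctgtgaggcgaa
Cct6a, chr12:32519063-32519102, minus strand: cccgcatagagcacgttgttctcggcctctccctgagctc
Pabpc4, chr5:140848762-140848801, plus strand: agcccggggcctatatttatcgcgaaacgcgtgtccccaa
Taf1d, chr8:20427946-20427985, plus strand: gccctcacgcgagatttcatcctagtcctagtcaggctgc
Nop58, chr9:68615044-68615083, plus strand: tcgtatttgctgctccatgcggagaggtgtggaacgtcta
The stretches of Rpl13a and Rpl4, which encode ribosomal proteins, held overlapping words just before the start. Those of Cct6a, Pabpc4, Taf1d and Nop58 held none. Over host genes that contain a RefSeq snoRNA gene, 27 of 80 listed starts (78 genes, 33.8%) held a word on the gene's strand. The share was 22.6% of 84 starts of the host genes without one and 20.6% of all 33469 starts in the table. On the other strand 12 of 80, 13 of 84 and 6830 of 33469 starts held one. A match is a string of letters in a window and was not examined for function.

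The members were 51 to 150 bases long, with a median of 107. Of the 520, 498 stood at 1 position and 22 stood for 104 rows at several positions with identical values, which the array cannot tell apart. All but 1 had a position on an assembled chromosome. Their mean levels ran from 6.71 to 12.96, with a median of 7.56. The members just above the threshold had means of 6.706, 6.71 and 6.71, with differences between retinoic acid and control of -0.48, -0.41 and 0.02 on the log2 scale. The rows just below it had means of 6.691, 6.693 and 6.699 and differences of -0.03, -0.08 and -0.12. The row of highest mean lay on an unplaced part of chromosome 5 (36397 to 36474). It measured 12.94, 13.07 and 12.90 in the control pools and 12.76, 13.04 and 13.05 in the retinoic acid pools. Its groups overlapped, and its difference of -0.02 ± 0.086 (SE, adjusted p = 0.94) changed sign when control 2 or retinoic acid 1 was left out, to 0.03 and 0.07, and was -0.35 (adjusted p = 0.0063) under cyclic loess normalization.

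The comparison asked how the level of each member differed between embryos exposed to retinoic acid and controls. The members were mostly lower after retinoic acid: 216 of 520 (41.5%) fell and 18 (3.46%) rose at an adjusted p under 0.05. Over all 29489 main rows, in the same limma fit with Benjamini-Hochberg adjustment over all of them, 2.8% fell and 5.1% rose. The median difference of the members was -0.22 on the log2 scale, with quartiles of -0.56 and -0.03, and 412 of 520 lay below 0. The median difference of all main rows was 0.03. The groups did not overlap for 53.8% of the members, 252 of them lower and 28 higher after retinoic acid, against 24.5% of all main rows, where 7.78% were lower and 16.7% higher. Among the 11682 other rows with a mean above 6.7 the share was 37.9%, with 1087 lower and 3340 higher. Of those other bright rows 2.82% fell and 11.2% rose in the limma test. The median level over the members was 7.76, 7.74 and 7.69 in the control pools and 7.44, 7.42 and 7.43 in the retinoic acid pools, so all 3 treated pools lay below all 3 controls. In bulk samples fewer cells of a type and less RNA per cell cannot be told apart.

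A mean over both groups can admit a row through 1 group alone. This was so for 38 members whose control mean was above 6.7 and whose retinoic acid mean was not, and for 2 members the other way. Among the 480 members with both group means above 6.7, 188 fell and 18 rose. The members were 1.78% of the 29247 distinct main rows outside the mitochondrial chromosome. They made up all 10 of the 10 largest falls, 18 of the 20, 36 of the 50 and 72 of the 100 largest. They made up none of the 20 largest rises and 3 of the 100 largest rises. A fall of at least 1 log2 unit was measured for 37 members, against 6 of the 11682 other bright rows.

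**Figure D1:**
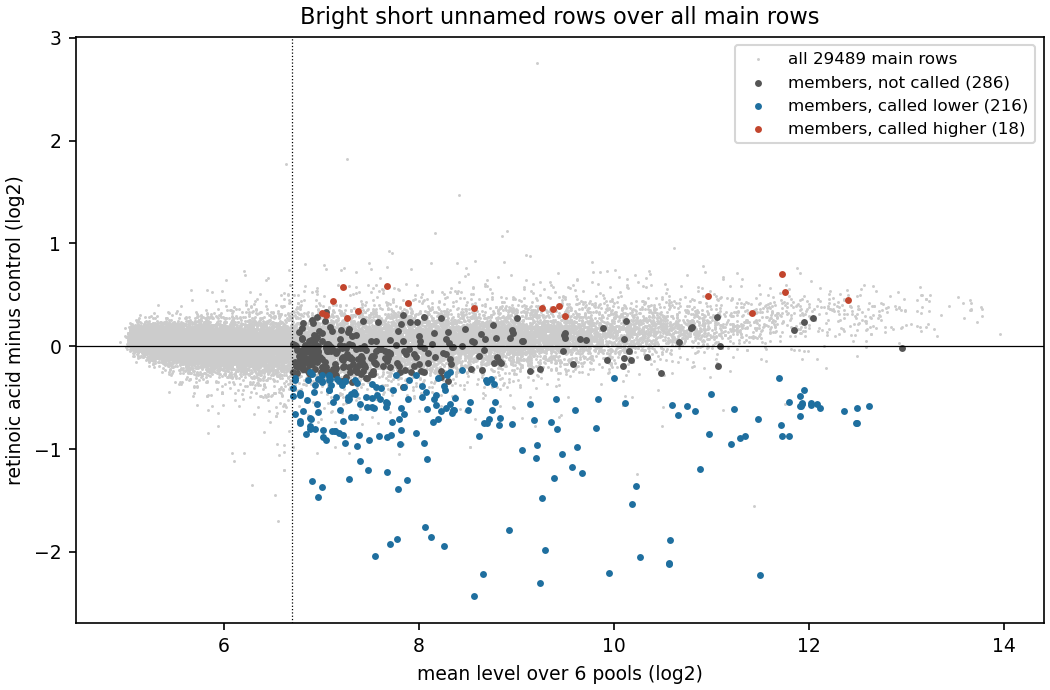
Mean log2 level over the 6 pools (horizontal) against the difference between retinoic acid and control (vertical, log2), with all 29489 main rows in grey and the 520 members in colour by call. The dotted line is the threshold of 6.7, and the members called lower (216) reach down to -2.43 while those called higher (18) end at 0.70.

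The largest fall belonged to a member of 119 bases on chromosome 3 (153930955 to 153931073) inside Mybl2, which encodes a transcription factor of dividing cells. It measured 9.56, 9.94 and 9.85 in the control pools and 7.17, 7.32 and 7.55 in the retinoic acid pools. Every treated pool lay more than 2 log2 units below every control. The difference was -2.43 ± 0.11 (SE), 5.41-fold lower, with an adjusted p of 3.9e-09, whereas the Mybl2 row around it measured 0.24 higher at an adjusted p of 0.046. That call on the host row was lost without any 1 of the 6 pools (adjusted p of 0.068 to 0.16). It did not hold under quantile normalization (0.14, adjusted p = 0.19), cyclic loess (0.13, 0.25) or median centring (0.25, 0.068) either.

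A member of 74 bases on chromosome 1 (211391510 to 211391583) lay between Slc3a2, which encodes an amino acid transporter chain, and Wdr74, which encodes a ribosome assembly factor. It measured 10.36, 10.48 and 10.31 in the controls and 8.06, 8.13 and 8.08 after retinoic acid. The spread within each group was small beside the gap between them, and the difference was -2.30 ± 0.070 (SE), 4.92-fold lower, with an adjusted p of 1.3e-10.

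A brighter member of 105 bases on chromosome 16 (64896375 to 64896479) lay 379 bases from Tti2, a cofactor for the folding of large kinases. Its control values were 12.49, 12.69 and 12.65 and its retinoic acid values 10.33, 10.41 and 10.42, with no overlap. It fell 4.67-fold (-2.22 ± 0.073, adjusted p = 2.4e-10), and the Tti2 row did not pass the test (0.23, adjusted p = 0.087).

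The member of 80 bases inside Rpl13a on chromosome 1 (95601239 to 95601318) measured 11.60, 11.63 and 11.66 in the controls and 9.41, 9.62 and 9.51 after retinoic acid. Its groups lay almost 2 log2 units apart at their nearest values, and it fell 4.34-fold (-2.12 ± 0.073, adjusted p = 3.6e-10). Inside Cct6a, a subunit of the cytosolic chaperonin, a member of 131 bases on chromosome 12 (27999424 to 27999554) measured 11.50, 11.72 and 11.66 against 9.37, 9.65 and 9.52. It fell 4.33-fold (-2.11 ± 0.085, adjusted p = 1.7e-09). The other member inside Cct6a fell by a similar amount, from 11.57, 11.54 and 11.45 to 9.79, 9.55 and 9.59 (-1.88 ± 0.078). The Cct6a row was 0.40 higher (adjusted p = 0.013). It did not pass when control 2 (0.057), control 3 (0.065) or retinoic acid 2 (0.053) was omitted. It measured 0.23 under quantile normalization (adjusted p = 0.099) and 0.20 under cyclic loess (0.17).

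Inside Pabpc4, which encodes a poly(A)-binding protein, a member of 132 bases on chromosome 5 (142607720 to 142607851) fell from 10.16, 10.28 and 10.40 to 8.23, 8.27 and 8.42 (-1.98 ± 0.080, adjusted p = 1.7e-09). The 10 largest falls and the 10 largest rises were taken among called members with groups apart. That their groups do not overlap was thus fixed by the choice and is no result. The remaining 4 of the 10 falls were a member inside Prrc2a (-2.05), a member inside the semaphorin gene Sema3e (-2.04), a member on chromosome 4 nearest to Pdia4 (-2.21) and a member with 2 positions on chromosome 1 nearest to LOC690349 (-2.20). Each of these 10 falls passed the test under every alternative that was run, the spike-in shift described at the end included (adjusted p of 3.6e-05 to 0.0041 there).

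**Figure D2:**
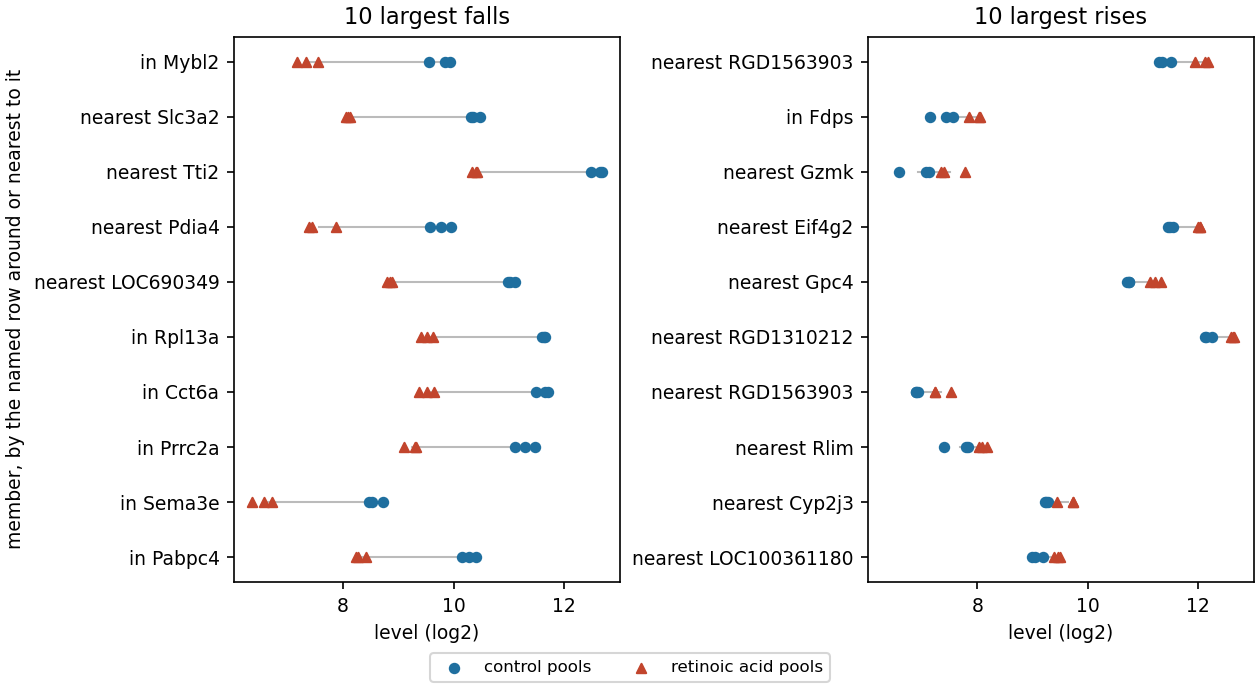
Log2 level of the 10 members with the largest falls (left) and the 10 with the largest rises (right) in each of the 3 control pools (circles) and 3 retinoic acid pools (triangles), joined by a line between the group means. The members are labelled by the named row that contains them or is nearest, and the falls run from -2.43 to -1.98 log2 units and the rises from 0.37 to 0.70.

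A host was found for 200 members, in 155 host rows, of which 129 held 1 member and 9 held 3 or more. Another 306 members were assigned only a nearest named row, at a median distance of 17.6 kb, and 14 had no single host. Of the 151 host genes matched to RefSeq, 87 (57.6%) contained at least 1 snoRNA gene in GRCr8. The share was 1.93% among 9607 other genes with bright rows. Members inside a host with snoRNA genes numbered 131, of which 68 fell and 2 rose, with a median difference of -0.31. Members inside a host without them numbered 65, of which 23 fell and 2 rose, with a median of -0.20. Outside any host, 81 of 130 members with a RefSeq snoRNA gene between the genes on either side fell and none rose in the limma test, although 3 were higher at an unadjusted p under 0.05 (median -0.51). Members of the 2 chromosome 6 clusters described below, of which 39 of 40 and 4 of 4 fell, also lay in no host, and their part in that count was not separated. Where no snoRNA gene lay between the flanking genes, 32 of 159 members fell and 10 rose (median -0.05). These groups share a genome annotation and differ in level and length, and no test between them was made.

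In the deposited scaling the host rows rose more often than they fell. They had a median difference of 0.10, and 38 of 155 rose while 3 fell. Among all 19723 named rows of at least 300 bases 6.32% rose and 1.53% fell. The host rows were brighter, with a median level of 9.44 against 6.8 for all these rows. Of named rows with a mean above 6.7, 34.4% rose at 301 to 1000 bases, 18.2% at 1001 to 5000 bases and 8.83% at greater length. The share of the host rows that rose was 24.5%. The 87 host rows with snoRNA genes included 30 that rose and none that fell in the limma test, with 5 lower at an unadjusted p under 0.05 (median 0.17). The number of host rows that rose depended on the scaling: it was 17 under quantile normalization and 11 under cyclic loess, where 6 fell, and it was 18 without control 3 and 24 without retinoic acid 2. The number of members that fell was 216 as deposited, 216 under quantile normalization and 222 under cyclic loess. It was 17 under the spike-in shift described at the end. Of the 92 members inside a host that fell, 41 lay in a host row that rose, 2 in a host row that fell and 49 in a host row that did not pass the test. The member's difference was below that of its host for 180 of 200. Across the 200 members, which partly share hosts and all share the same 6 arrays, the correlation of the member's difference with the host's was -0.19 (Pearson).

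**Figure D3:**
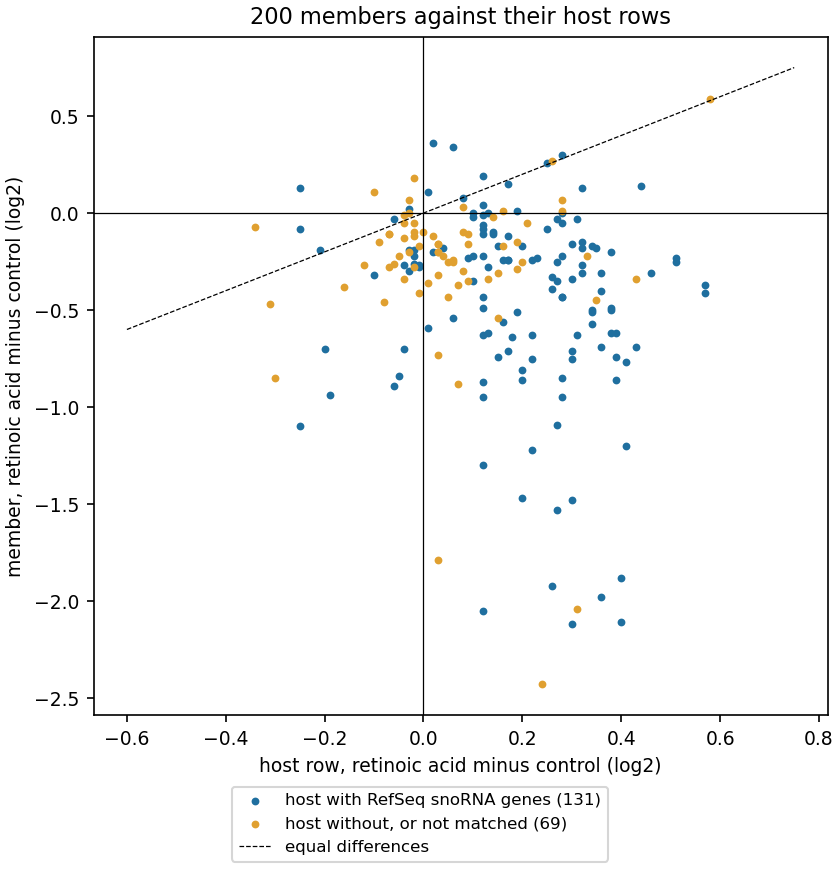
Difference between retinoic acid and control (log2) of the host row (horizontal) against that of the member inside it (vertical) for 200 members, coloured by whether the host gene contains a RefSeq snoRNA gene (131) or does not or was not matched (69). Below the dashed line of equal differences lie 180 members.

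Ribosomal protein genes made up 23 of the hosts and held 38 members. Of these members 21 fell and 1 rose, with a median difference of -0.35. Of the host rows 13 rose, with a median difference of 0.30. The 4 members of Rpl13a differed among themselves, and 3 fell. Beside the member given above, that at 95602276 to 95602358 fell from 9.94, 10.09 and 9.97 to 8.71, 8.37 and 8.49 (-1.48 ± 0.087, adjusted p = 9.3e-08). The member at 95601753 to 95601837 fell by 0.75, and the member at 95601486 to 95601552 did not pass the test (-0.16 ± 0.089, adjusted p = 0.37). The Rpl13a row itself measured 11.71, 11.82 and 11.74 against 12.06, 12.06 and 12.05 (0.30 ± 0.066, adjusted p = 0.012). All 3 treated pools of the host row were above the controls, the opposite order to that of its 3 falling members. The rise of the host row did not hold under cyclic loess (0.04, adjusted p = 0.81) or quantile normalization (0.22, adjusted p = 0.052) or without control 1 (adjusted p = 0.066).

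Rpl4 held 4 members, of which 3 fell by 0.50 to 0.57 and the fourth did not pass the test (-0.17, adjusted p = 0.56). The brightest, on chromosome 8 (68368820 to 68368918), measured 10.84, 10.91 and 10.90 in the controls and 10.22, 10.44 and 10.28 after retinoic acid, with no overlap. The Rpl4 row was 0.34 higher (adjusted p = 0.018), which was lost without control 3 (0.077) or retinoic acid 2 (0.070). It measured 0.20 (adjusted p = 0.066) under quantile normalization and 0.03 (0.87) under cyclic loess. In Rpl3, 2 of 3 members fell, by 0.95 and 0.49, and the host row did not pass the test (0.12, adjusted p = 0.37).

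The translation factor genes Eif4a1 and Eif4a2 held 3 and 4 members. All 3 in Eif4a1 fell, by 0.63 to 1.22, with a host row that did not pass the test (0.22, adjusted p = 0.064). In Eif4a2, 3 of 4 fell, by 0.49 to 0.62, while the host row rose from 9.60, 9.54 and 9.39 to 9.93, 9.86 and 9.86 (0.38 ± 0.073, adjusted p = 0.0051). In Ncl, the gene of nucleolin, a protein of the nucleolus, 2 of 3 members fell by 0.86 and 0.81 (host row 0.20, adjusted p = 0.21). In Nop58, which encodes a core protein of box C/D particles, 2 of 4 members fell. The larger of these falls, on chromosome 9 (58258992 to 58259136), went from 9.77, 9.61 and 9.87 to 8.77, 8.50 and 8.71 (-1.09 ± 0.088). The smaller, of 0.35 (adjusted p = 0.029), did not pass without control 1 (0.14), control 3 (0.066), retinoic acid 2 (0.087) or retinoic acid 3 (0.099). The Nop58 row was 0.27 higher (adjusted p = 0.038), and that call was lost with any 1 pool left out other than retinoic acid 1 (adjusted p of 0.068 to 0.14). The Nop58 row measured 0.11 (adjusted p = 0.29) under quantile normalization, 0.10 (0.34) under cyclic loess and 0.28 (0.067) under median centring.

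The 520 members formed 36 clusters of at least 2 members with gaps of at most 20 kb, which held 153 members. In clusters 98 of 153 members fell, and outside them 118 of 367. In the 2 chromosome 6 clusters described below 39 of 40 and 4 of 4 members fell, and these are part of the 98. Several of these members share sequence and are not independent. All members of 27 clusters lay below 0, and 28 clusters held a member that fell while 2 held a member that rose.

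The largest cluster, on the plus strand of chromosome 6 (134203518 to 134327423), spanned 123.9 kb and held 40 members that stood for 87 rows. It lay between Mir136 and Mir379, downstream of the row RGD1566401, which RefSeq names Meg3, the maternally expressed noncoding gene of the Dlk1-Meg3 region. GRCr8 lists 84 snoRNA genes between the same 2 microRNA genes. Of the 40 members, 39 fell and all 40 had treated pools below the controls, with differences from -0.33 to -1.19 and a median of -0.59. The median level over the cluster was 11.55, 11.68 and 11.75 in the control pools and 10.98, 10.88 and 10.93 in the retinoic acid pools. The 20 brighter members and the 20 dimmer ones had the same median difference of -0.59. Several members share sequence, since 1 set of identical values covers 18 rows and another 25, so the 40 are not independent of each other.

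The brightest member of the cluster (134299894 to 134299978) measured 12.75, 13.03 and 12.95 in the controls and 12.37, 12.32 and 12.29 after retinoic acid. Its groups stood apart, and it fell 1.5-fold (-0.58 ± 0.079, adjusted p = 0.00033). The member with the largest fall (134246520 to 134246600) went from 11.35, 11.48 and 11.61 to 10.36, 10.25 and 10.25 (-1.19 ± 0.078, 2.29-fold lower). A smaller cluster downstream (134349726 to 134360232) held 4 members of 75 bases, all of which fell, with a median of -0.61. Without these 2 clusters, 173 of the other 476 members fell and 18 rose, with a median of -0.17.

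Values of neighbours in the same region follow, with no test of their difference from the cluster. The Meg3 row was 0.30 lower (SE 0.074, adjusted p = 0.023). It did not pass when control 2 (0.10), retinoic acid 1 (0.075) or retinoic acid 2 (0.053) was omitted, nor under median centring (0.055). Of 53 microRNA rows beside the cluster 6 fell, with a median difference of -0.04, and their median level of 5.7 was far below that of the cluster. Dlk1, the paternally expressed gene of a Notch-related membrane protein at the other end of the region, was 0.48 lower (SE 0.070, adjusted p = 0.00057). In the other imprinted region, a member of 93 bases that stood for 11 rows on chromosome 1 (111288045 to 111288137) fell by 1.37. The nearest named row, Snrpn, lay apart from it at 111570588 to 111592853 and is not its host. It was 0.27 higher (adjusted p = 0.045). The call on Snrpn was lost without any 1 pool other than control 1 (adjusted p of 0.062 to 0.16), under cyclic loess (0.060) and under median centring (0.074).

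A cluster of 7 members on chromosome 13 lay in and just before the noncoding host gene Gas5, with 6 of them inside it, and its members differed from each other. The brightest (76595695 to 76595776) fell from 12.07, 12.23 and 12.20 to 11.25, 11.34 and 11.31 (-0.87 ± 0.071, adjusted p = 2.9e-06). The largest fall (76597233 to 76597309) went from 8.57, 8.45 and 8.57 to 7.27, 7.53 and 6.89 (-1.30 ± 0.12). Both had groups that did not overlap. The members starting at 76595484, 76596307 and 76596601 did not pass the test, with differences of -0.01, -0.08 and 0.04. The Gas5 row measured 9.85, 9.88 and 9.77 against 9.94, 10.09 and 9.84 (0.12 ± 0.077, adjusted p = 0.43), with overlapping groups. A short row of 78 bases that the table does name Gas5 fell by 0.69 (adjusted p = 0.00036).

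The 6 members between Slc3a2 and Wdr74 lay within 2.0 kb, where GRCr8 lists 7 snoRNA genes and 1 long noncoding gene. Only 2 of them fell, that given above by 2.30 and its neighbour (211391234 to 211391308) by 0.88. The brightest (211392417 to 211392480) measured 11.28, 11.28 and 10.93 against 10.98, 11.01 and 10.92 and its groups overlapped (-0.19 ± 0.090, adjusted p = 0.26). In and around Taf1d on chromosome 8, which encodes a subunit of an RNA polymerase I factor, 2 of 10 members fell. They were neighbours: that at 12115630 to 12115766 fell by 0.85 (SE 0.075), and the brightest, at 12115964 to 12116096, went from 12.09, 12.21 and 12.18 to 11.71, 11.88 and 11.62 (-0.43 ± 0.078). The next member, at 12116311 to 12116383, measured 11.11, 11.07 and 11.09 against 11.07, 11.22 and 10.96, with overlapping groups.

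The second largest cluster behaved differently in these values. Its 11 members of 135 to 150 bases on chromosome 10 (88630543 to 88694779) lay among keratin-associated protein genes, which encode hair proteins. None was called in limma, none had an unadjusted p under 0.05, and their differences ran from -0.13 to 0.06. The brightest (88635809 to 88635958) measured 8.37, 8.39 and 8.31 in the controls and 8.45, 8.29 and 8.30 after retinoic acid, with overlapping groups.

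**Figure D4:**
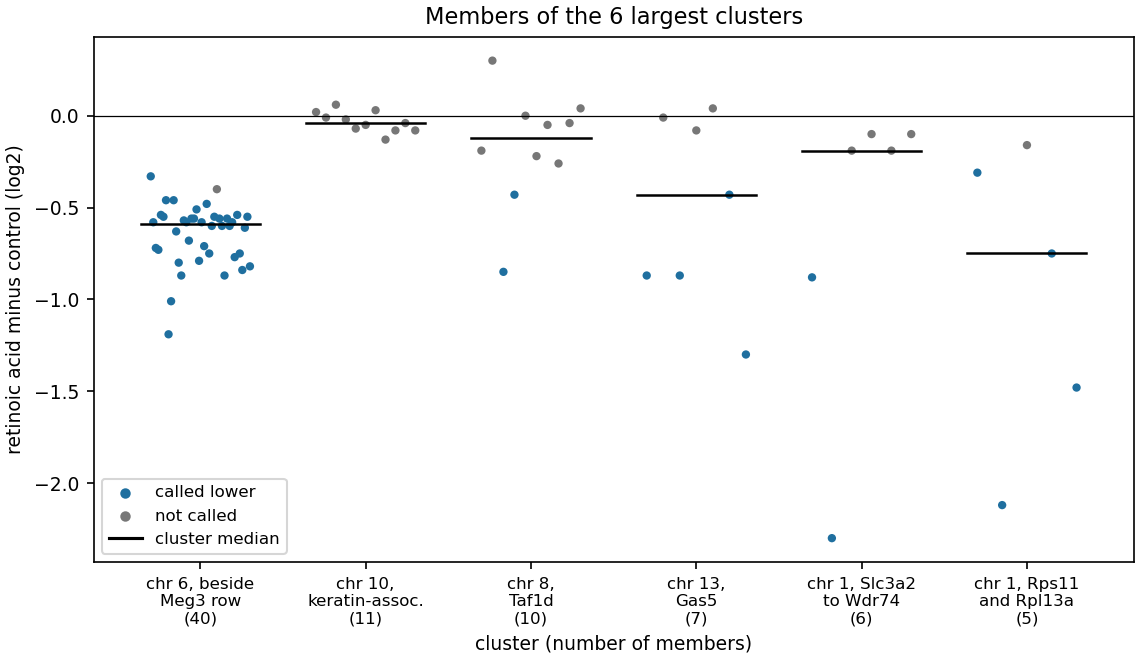
Difference between retinoic acid and control (log2) of each member of the 6 largest clusters, with a bar at the cluster's median. Of 40 members beside the Meg3 row 39 were called lower and all lie between -1.19 and -0.33, the 11 on chromosome 10 lie between -0.13 and 0.06, and the other 4 clusters hold both called and uncalled members.

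The members that rose were fewer and changed less. The largest rise was that of a member of 145 bases on chromosome 2 (330255 to 330399), which went from 11.29, 11.50 and 11.35 to 12.12, 11.94 and 12.17 (0.70 ± 0.081, 1.62-fold, adjusted p = 8.9e-05). Its neighbour of the same length (332751 to 332895) went from 6.89, 6.93 and 6.88 to 7.53, 7.24 and 7.24 (0.44 ± 0.082). The groups of both members stood apart, and the nearest named row, RGD1563903, lay 96641 bases from the second.

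Of the 6 members of exactly 106 bases 4 rose and 1 fell (-0.57), with a median difference of 0.37 over the 6. This length was picked after the values were seen, from all exact lengths with at least 5 members, so the count is a description. That on chromosome 1 (169029850 to 169029955) measured 11.49, 11.54 and 11.45 against 12.03, 12.04 and 12 (0.53 ± 0.066, adjusted p = 0.00016). That on chromosome 7 (13799810 to 13799915) measured 12.14, 12.26 and 12.12 against 12.60, 12.65 and 12.63 (0.45 ± 0.068). That on chromosome X (139087880 to 139087985) measured 10.74, 10.71 and 10.74 against 11.21, 11.12 and 11.33 (0.49 ± 0.071). All 3 were among the named largest rises, which were taken among called members with groups apart. The rises on chromosomes 7 and X did not pass under cyclic loess (0.16 and 0.29, adjusted p = 0.15 and 0.057).

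Inside Fdps, which encodes a sterol pathway enzyme, a member of 107 bases on chromosome 2 (181173010 to 181173116) rose from 7.56, 7.14 and 7.44 to 7.84, 8.04 and 8.03 (0.59 ± 0.099, adjusted p = 0.0017). The Fdps row rose by 0.58 as well. Of the other 4 named rises, 2 did not pass with some single pools left out. The member nearest to Gzmk (0.58, adjusted p = 0.014) did not pass without control 2 (0.41, 0.062) or retinoic acid 2 (0.45, 0.068). That nearest to Rlim was 0.42 higher (adjusted p = 0.019). It did not pass without control 3 (0.28, 0.060), retinoic acid 1 (0.43, 0.053) or retinoic acid 2 (0.38, 0.077). The others, nearest to Cyp2j3 and LOC100361180, rose by 0.39 and 0.37. The Cyp2j3 neighbour did not pass under quantile normalization (adjusted p = 0.091).

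The share of members that fell varied with length. It was highest at 81 to 90 bases, where 45 of 66 fell (68.2%, median -0.55) and which includes much of the chromosome 6 cluster. At 101 to 110 bases 12 of 61 fell and 6 rose. At 131 to 140 bases 47 of 106 fell and 4 rose. The share also varied with level, from 28 of 108 members with a mean of 6.7 to 7 to 28 of 39 with a mean above 11, where 4 rose. Of those 39 members, 21 belonged to the chromosome 6 cluster. Dim rows of the same kind, unnamed and at most 150 bases with a mean at or below 6.7, had a median difference of 0.02, and 86 of 2704 fell.

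Other short rows were compared by their counts. Of 62 named bright rows of at most 150 bases, 11 fell and 2 rose, with a median of -0.09. Of 122 unnamed bright rows of 151 to 300 bases, 31 fell and 13 rose, with a median of -0.05, while of 39 named ones of that length 15 rose (median 0.22). Unnamed rows of 301 to 1000 bases had a median of 0.12, with 10 of 373 that fell and 82 that rose. Named rows of that length had a median of 0.17.

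**Figure D5:**
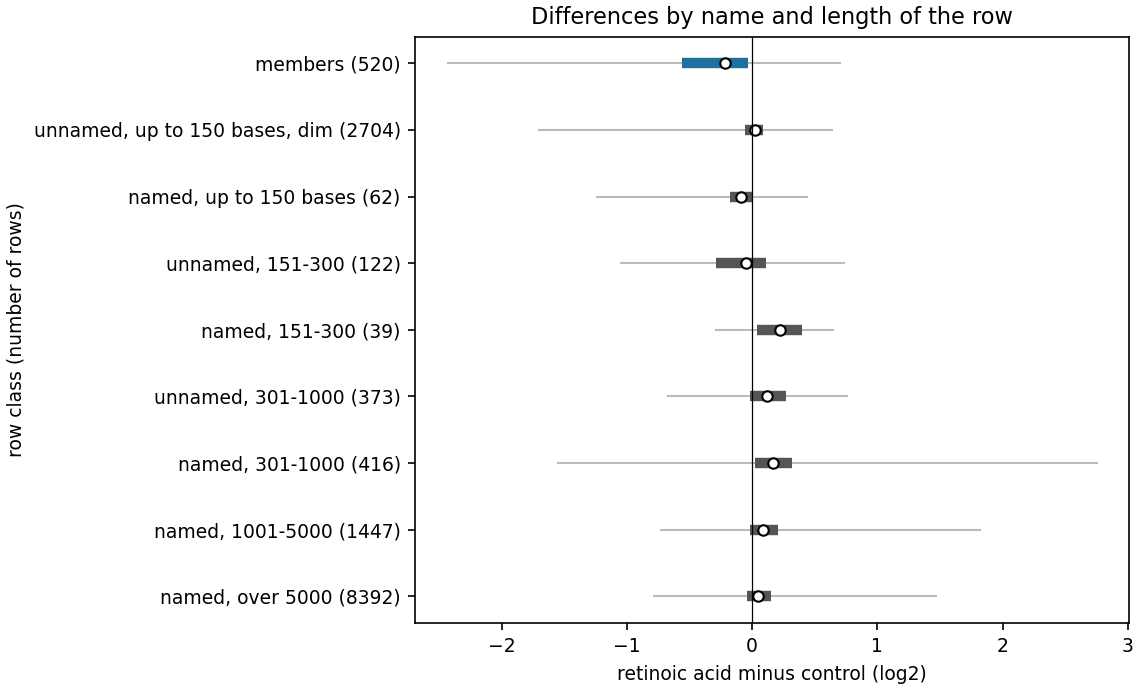
Difference between retinoic acid and control (log2) by class of row, with the median as a circle, the quartiles as a thick bar and the full range as a thin line. All classes but the second hold rows with a mean above 6.7, and the members have the lowest median, -0.22, against -0.09 for named rows of the same length and 0.02 for dim unnamed ones.

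Genes whose proteins bind or process small nucleolar RNAs were compared with the members. Of 4 measured box C/D particle genes 2 rose: Nop56 (0.36, adjusted p = 0.0049) and Nop58 given above. That count was 1 under quantile normalization and median centring and without any 1 pool other than retinoic acid 1. Neither gene passed under cyclic loess, where Nop56 measured 0.16 (adjusted p = 0.12). None of the 3 measured H/ACA particle genes was called in limma, with 1 higher at an unadjusted p under 0.05. None of the 12 assembly factor genes was called either, with 5 higher at an unadjusted p under 0.05. Of 18 genes of spliceosomal particle proteins 5 rose, among them Snrpd1 (0.41, adjusted p = 0.0017). The count was 2 under quantile normalization and cyclic loess, 3 under median centring, and 2 or 3 with 1 pool left out. Of 19 genes for proteins that bind or process 7SK, signal recognition particle, Y and other such RNAs 5 rose, the largest rise being that of Pop5, a subunit of RNase P (0.60, adjusted p = 5.7e-05). The count for these RNAs was 3 without retinoic acid 1 and 2 without control 2, control 3 or retinoic acid 2. A list of 22 genes covered RNA polymerase III subunits and factors that act with it, such as Brf1, Gtf3c1, Snapc1 and Maf1. None of the 22 was called in limma, with 4 higher at an unadjusted p under 0.05. In a list of 62 protein-coding snoRNA host genes, each measured by its brightest row, 27 rose, with a median of 0.24. That count was 10 under quantile normalization and 6 under cyclic loess, and 16 without control 3 or retinoic acid 2. As deposited, 43.5% of this list rose, at a median level of 10.75, beside 5.1% of all main rows. Of named rows with a mean above 6.7, 34.4% rose at 301 to 1000 bases. The share was 18.2% at 1001 to 5000 bases and 8.83% at greater length. The largest rise in the list was Rpl10 (0.96, adjusted p = 0.00013). For Rpl23a the brightest row lay on chromosome 14 and the host row of the members on chromosome 10. The brightest Rps20 row was not the host row either. A row of this list is therefore not always the gene that contains the snoRNAs.

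Markers of the sorted cells and of other cells also moved between the groups. All 7 measured neuroepithelium markers had means above 6.7, and 4 of them rose, including Sox2, a transcription factor of neural progenitors (0.83 ± 0.082, adjusted p = 2e-05). That count was 2 without control 1 or retinoic acid 2. All 5 heart muscle markers rose, and their mean level was 6.80 to 6.84 in the control pools and 7.80 to 7.89 in the retinoic acid pools. One of them, Myh6, had a mean below 6.7, at 6.21. Of 5 endothelium markers 4 fell, and their mean level was 8.37 to 8.49 in the controls and 7.84 to 7.94 after retinoic acid. Of 4 erythroid markers 3 rose (8.51 to 8.70 against 8.87 to 8.93), among them the embryonic globin Hbe1 at a mean of 13.77 and Hbb at 6.29. Under quantile normalization or cyclic loess 1 erythroid marker rose. Of 9 mesoderm markers 2 rose and 4 fell, of 5 surface ectoderm markers 1 rose, and of 3 yolk sac markers 1 fell. The part of these cell types in the differences of the members was not tested.

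A shift of each pool by its ERCC spike-ins of equal amount in both mixes, by which 10 of the 23 such spike-ins were used, gave other calls. The shifts ran from -0.587 to 0.51 between the pools and moved the median of all rows to 0.21. With the shift 17 members fell and none rose in limma, where 44 were lower and 3 higher at an unadjusted p under 0.05. The median difference of the members was then -0.04, with 281 of 520 below 0, against -0.22 and 412 as deposited. In both scalings that median lay 0.25 below the median of all main rows.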

How the data were processed

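The deposited table held log2 expression values of 6 samples, normalized by the authors in a way not given in the sources used here, beside their limma statistics. Its log2 fold columns, p-value columns and the score columns t and B were deposited by the authors and served only as an alternative. The submitters' processing notes name limma. The array reader, normalization and genome build were not given in the sources used here.

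From these values each main row was fitted by lmFit and moderated by eBayes (limma 3.58.1, R 4.3.3) with treatment as the only term, with Benjamini-Hochberg adjustment over all 29489 main rows and a threshold of 0.05. No filter on low values was applied, so all 520 members were tested. The fit was tested on simulated data. The 167 control rows were left out. Errors are SE of the fit. Tables and plots were made with Python 3.11.15, pandas 2.3.3 and matplotlib 3.10.9.

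The members and the gene lists were chosen with earlier results of these data known. Members named in the text were the 10 largest rises and falls among called members with groups apart, the brightest, the brightest and most changed of each of the 6 largest clusters, those at the threshold and their hosts, and hosts of at least 3 members. Further members of these hosts and clusters, chosen after their values were seen, are given for contrast. Genes were matched to RefSeq (GRCr8) by Entrez identifier. Which spike-ins are of equal amount in both mixes came from general knowledge of the product. Alternatives covered the scaling, the moderation, the rows fitted, the limits on length and level, the cluster gap, the host rule, each pool left out and the replicate number as a block.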

Additional observations from a re-analysis of the deposited data

How the results depend on the processing

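Under the spike-in shift 4 rows of the whole table were called higher and 20 lower, 17 members were lower and 0 higher, and 0 host rows were higher (limma, with 2 at an unadjusted p under 0.05). The shifts differed between pools of 1 group, which widens every error. Under cyclic loess 864 rows of the whole table rose and 1119 fell, so that the share of rises among calls was 43.6%, against 64.5% as deposited and 51.2% under quantile normalization. For the members that share was 5.53%, 7.69% and 6.49%. Host rows called higher numbered 11 under cyclic loess and 17 under quantile normalization, against 38 of 155 as deposited, and the cause was not tested. With nearest named rows included they numbered 61 of 394, and with the nearest row on either strand 60 of 392, both larger sets of rows by construction. A length limit of 120 bases left 318 members with 133 lower and 10 higher, a limit of 300 bases gave 31 higher, and a level limit of 6.2 gave 844 members. With each pool left out in turn, 887 to 1190 rows rose over the table, 191 to 208 members fell, 12 to 19 members rose and 18 to 31 host rows rose, the lowest counts of rises being those without control 3.

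Among the rows refitted singly, the sign changed only for values that had not passed the test. The brightest member, on an unplaced part of chromosome 5, was 0.16 under the spike-in shift and -0.07 to 0.07 with a pool left out. The brightest on chromosome 10 was 0.16 and -0.07 to 0.02. Under cyclic loess the host rows Gas5, Eif4a1, Ncl and Rpl3 were -0.01, -0.08, -0.09 and -0.18, and Rpl3 was -0.01 under quantile normalization. Of the 49 members refitted singly, 45 kept their side of the threshold under cyclic loess and 48 under quantile normalization. Choosing members with both group means above 6.7, without the chromosome 6 clusters or at 1 position only were alternatives added after seeing the data, and left the counts of calls within 1.5 times.

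The correlations of the pools did not settle whether the replicate numbers pair them. Deviations of same-numbered pools correlated at -0.073, 0.197 and 0.20 for numbers 1, 2 and 3. The values for 2 and 3 were the highest of all pairs, while control 1 correlated best with retinoic acid 2 (0.143). With the replicate number as a block 231 members fell and 24 rose, with 956 falls and 1791 rises over all main rows. With 3 pools a group, differences well under the spread between pools were not detectable.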
